A study of Mus musculus with 4 samples.

Results

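The genes described here are a module of fatty acid and triglyceride synthesis, 36 genes chosen by name for their part in making, activating, esterifying and releasing fatty acids. Under the gene names of the array files, 35 of the 36 genes were present, on 67 of the 41174 non-control probes. The remaining member, Me1, was on the array under the older symbol Mod1 and is reported apart. The whole array carried 21249 named genes.

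RNA came from 3T3-L1 cells, a clonal mouse preadipocyte line that turns into fat cells after hormonal induction, and each of 4 conditions had a single Agilent Whole Mouse Genome array. All cells were harvested on day 2 of an induction with 10 µg/ml insulin, 1 µM dexamethasone and 0.5 µM IBMX, and every culture held 0.1% DMSO. The conditions were DMSO alone, 100 µg/ml bilberry extract, 100 nM delphinidin and 100 nM cyanidin. The question was how bilberry extract and its anthocyanidins act on the early stage of adipocyte differentiation. With 1 array per condition no difference below has a replicate check, and no test was made. The 3 ratios to DMSO share the same DMSO array. Because RNA of a whole culture was measured, fewer fat-forming cells and less RNA per cell cannot be told apart.

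Newly made fat starts from citrate, which leaves the mitochondrion, is split to acetyl-CoA and is built into palmitate by the carboxylases and fatty acid synthase. Elongases and desaturases then change the length and saturation of the chain, acyl-CoA synthetases activate it, and the acyltransferases, lipins and diacylglycerol acyltransferases join it to glycerol. SREBP-1, encoded by Srebf1, and ChREBP, encoded by Mlxipl, are the transcription factors best known for switching these enzymes on, and Thrsp (Spot 14) is a small nuclear protein that follows lipogenesis in liver and fat. In preadipocytes the module is switched on as differentiation proceeds.

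To make arrays comparable, spot signals were expressed relative to their array's 75th percentile, and this scaled signal is the level given below. That percentile was 861 on the DMSO array, 576 with bilberry, 1009 with delphinidin and 1016 with cyanidin. A scaled signal depends on how well a probe binds, so levels are compared between arrays for 1 probe and never between genes. The log2 ratios carry the error that the scanner software gives each spot, which was 0.20 for bright probes because the software sets at least 10% on each signal. Among 140 probes spotted 10 times and well above background, the SD of the ratio between spots was 0.028 to 0.035 as a median. Neither error holds any spread between cultures. Scaling to the spike-in RNAs in place of the 75th percentile moved the median gene by -1.60 on the bilberry array, by 0.24 with delphinidin and by 0.17 with cyanidin. Under that scaling all 31 members measured were below DMSO with bilberry, so every bilberry value below is relative to the other genes of that array.

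The cultures, labelled as adipocytes, held RNA of marker genes of both preadipocytes and fat cells. RNA of a whole culture does not show whether the same cells carried both. All 9 preadipocyte and fibroblast markers and all 9 adipocyte markers passed the software's own test for signal well above background on the 4 arrays. Of all 20657 genes unmarked on the 4 arrays, 12383 passed it. Of the defining markers of other cell types, 2 of 5 macrophage markers (Csf1r and Lyz2), 0 of 4 endothelial markers, 0 of 3 hepatocyte markers and 1 of 4 epithelial markers (Krt8) passed it.

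For 4 members the results turn on, the 250 bases before the start of the gene are shown, from RefSeq on GRCm38.p6, read 5′ to 3′ on the strand of the gene. Thrsp had the lowest ratio of the module with bilberry and with delphinidin, Agpat2 and Elovl1 were the pair above 0.5 (log2) in all 3 treatments, and Fasn encodes the central enzyme. The windows are chr7:97417551-97417800 (minus strand) for Thrsp, chr2:26604418-26604667 (minus strand) for Agpat2, chr4:118427843-118428092 (plus strand, the first of 2 listed starts) for Elovl1 and chr11:120824548-120824797 (minus strand) for Fasn. Capitals mark matches, on either strand, to CCAAT, the core of an NF-Y site, and to GGGCGG, the core of an Sp1 site.
Thrsp: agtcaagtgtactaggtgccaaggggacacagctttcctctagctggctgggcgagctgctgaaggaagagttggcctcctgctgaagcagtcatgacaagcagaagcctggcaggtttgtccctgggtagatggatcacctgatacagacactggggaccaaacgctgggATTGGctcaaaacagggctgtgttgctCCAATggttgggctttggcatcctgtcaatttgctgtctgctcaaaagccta
Agpat2: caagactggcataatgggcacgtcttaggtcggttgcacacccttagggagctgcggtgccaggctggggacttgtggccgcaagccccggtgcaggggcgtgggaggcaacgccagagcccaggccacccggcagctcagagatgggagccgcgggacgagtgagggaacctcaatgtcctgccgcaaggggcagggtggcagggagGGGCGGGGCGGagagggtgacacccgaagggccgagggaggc
Elovl1: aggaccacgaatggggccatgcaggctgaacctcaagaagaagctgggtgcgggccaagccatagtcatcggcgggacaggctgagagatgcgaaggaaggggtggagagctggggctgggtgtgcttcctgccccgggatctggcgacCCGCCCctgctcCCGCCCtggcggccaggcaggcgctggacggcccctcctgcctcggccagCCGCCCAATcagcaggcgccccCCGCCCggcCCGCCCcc
Fasn: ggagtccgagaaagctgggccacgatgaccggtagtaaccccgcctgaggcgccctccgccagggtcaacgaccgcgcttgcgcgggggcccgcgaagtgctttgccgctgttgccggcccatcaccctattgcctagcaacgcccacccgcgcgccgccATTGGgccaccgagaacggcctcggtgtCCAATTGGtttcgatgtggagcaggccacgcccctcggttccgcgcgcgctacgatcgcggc

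CCAAT was present in the Thrsp, Fasn and Elovl1 windows and not in that of Agpat2, and GGGCGG in those of Agpat2 and Elovl1 and not in those of Thrsp and Fasn. In the Elovl1 window 1 match of each kind lies over the other. Over all 32851 RefSeq windows of this length, 33.8% held CCAAT and 32.7% held GGGCGG. Among the 42 windows of the 30 members listed, 45.2% and 54.8% did. The sterol element TCACNCCAC was found in 2 of the 42 member windows (4.76%), of Acsl1 and Mlxipl, and in 1.05% of all windows. The E-box CACGTG was in 5 of the 42 (11.9%), of Elovl5, Lpin2, Mgll, Mlxipl and Slc25a1, and in 6.02% of all windows. The members' windows were richer in G and C, with a median of 62.4% against 52.4% over all windows. These matches describe the letters only.

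Most members lay within 2-fold of DMSO. Of the 35 members, 31 had an unmarked spot on all 4 arrays (all but Scd1, Scd2, Slc25a1 and Srebf1), and 28 of these passed the background test on each array. With bilberry 0 of 31 members were higher by more than 2-fold and 3 were lower (Thrsp, Elovl3 and Mlxipl), where 6.54% of all 20657 genes were higher and 7.25% lower. With delphinidin 0 were higher and 2 lower (Thrsp and Lpin3), where 2.92% and 4.43% of all genes were. With cyanidin 0 were higher and 2 lower (Mlxipl and Pnpla3), where 2.39% and 4.76% of all genes were. Among the 28 members well above background the counts past 2-fold in either direction were 2 (Thrsp and Elovl3), 1 (Thrsp) and 0 in the same order of treatments, beside 10.5%, 2.69% and 1.95% of 12383 genes.

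The medians of the 28 members lay near those of all genes. The median log2 ratio was 0.27 with bilberry against 0.16 for all genes, 0.04 against -0.01 with delphinidin, and -0.01 against 0.01 with cyanidin. The share above DMSO was 18 of 28 for bilberry, 18 of 28 for delphinidin and 13 of 28 for cyanidin, where 61.7%, 47.8% and 51.8% of all genes were. In all 3 treatments 11 members were above DMSO, or 39.3% against 32.4% of all genes, and 6 were below, or 21.4% against 23.9%. The plot of the members against all genes shows Thrsp as the lowest member in 3 of its 4 panels.

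**Figure D1:**
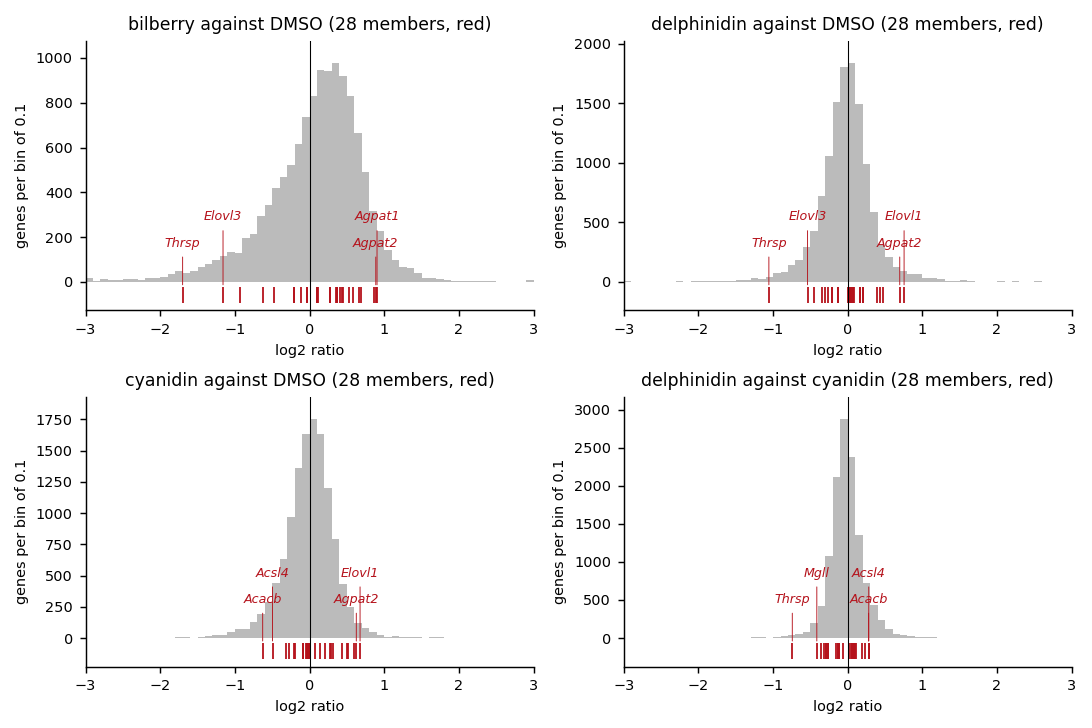
Grey bars count all genes well above background on the 4 arrays by log2 ratio (x axis) in bins of 0.1 (y axis, genes per bin), with values beyond 3 put in the end bins, and red ticks under them are the 28 members, with the lowest and highest 2 named. Thrsp lies at -1.70 with bilberry, -1.06 with delphinidin and -0.74 between delphinidin and cyanidin, while most other members lie within the bulk of all genes.

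Thrsp was the member farthest from DMSO with bilberry and with delphinidin. Its scaled signal was 0.257 for DMSO, 0.0792 for bilberry, 0.124 for delphinidin and 0.207 for cyanidin. The DMSO array was highest, cyanidin next, and the other arrays clearly lower. The log2 ratios to DMSO were -1.70 (software error 0.22) with bilberry, -1.06 (0.21) under delphinidin and -0.31 (0.21) under cyanidin. With bilberry 1.81% of the 12383 genes had a lower ratio, with delphinidin 1.27% and with cyanidin 15.3%. A single probe stood for Thrsp, at chr7:97292244-97292303 on mm8, the build of the array files. The bilberry value turned to 0.54 under a normexp background correction fitted on all spots and was -0.87 once spots with a marked local background were left out of that fit.

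The other regulators were dim or had a marked spot. Srebf1 had its only probe marked on the DMSO array, so it had no ratio to DMSO by the rule used for all genes. Its scaled signal with the marked spot kept was 38.2 for DMSO, 53.0 for bilberry, 36.3 for delphinidin and 43.3 for cyanidin. The bilberry array was highest and delphinidin and DMSO nearly level. The log2 ratios were then 0.47, -0.08 and 0.18, each with a software error of 0.20, and the bilberry value is below DMSO under spike-in scaling. The mark was for an outlying local background alone, and the processed signal of these files had a fitted surface subtracted and not the local background. Mlxipl was well above background on the DMSO array alone, at 0.0162. DMSO was at least 1.51-fold over delphinidin and at least 1.51-fold over cyanidin, and no fold can be given with bilberry, although its measured log2 ratio of -1.17 counts among those past 2-fold above. Its other probe did not pass that test on any array, and a mean over its probes put delphinidin above DMSO, at 0.34.

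**Figure D2:**
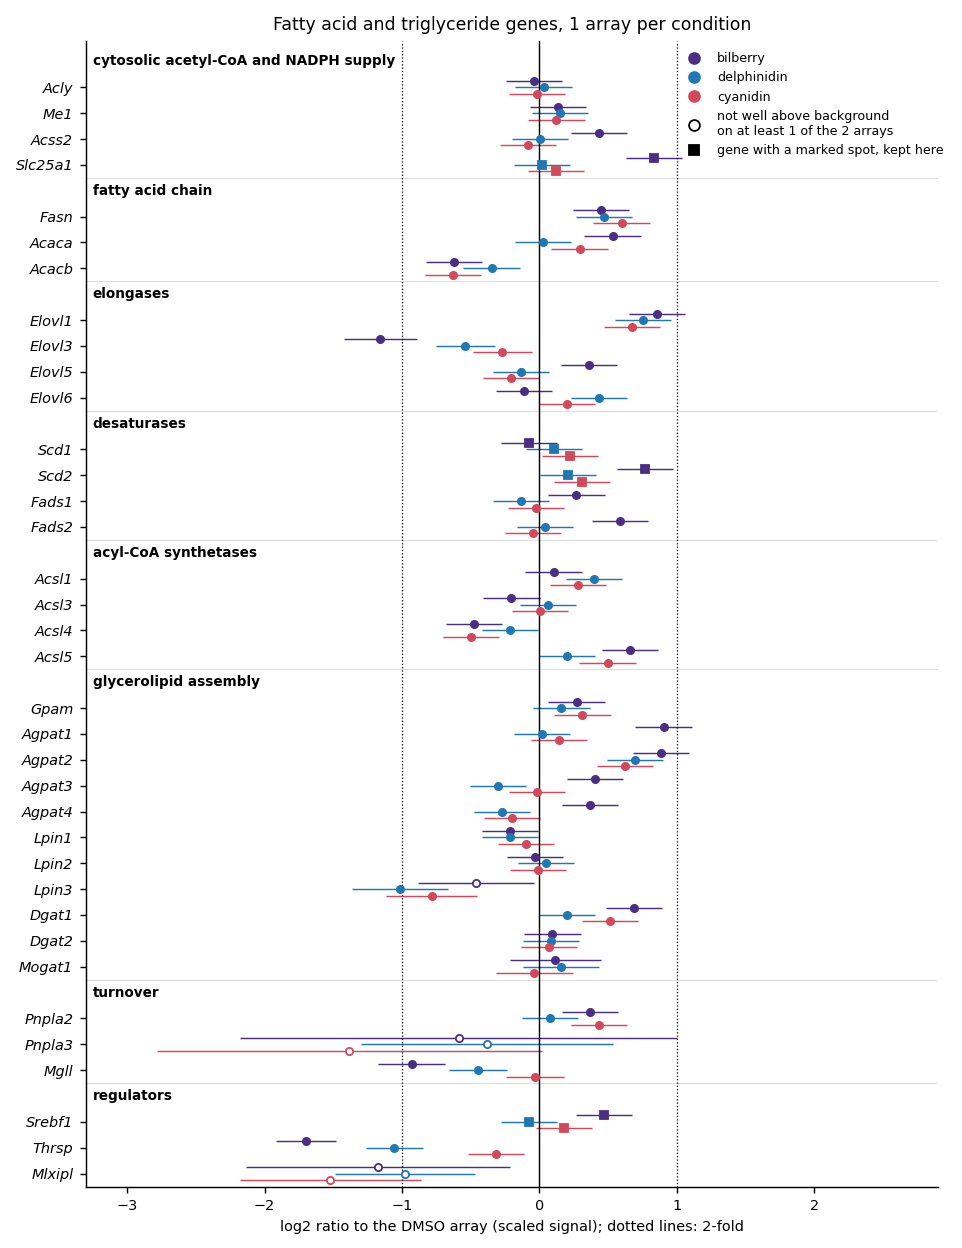
Log2 ratio of the scaled signal to the DMSO array (x axis) for the 36 genes in rows by role, 1 colour per treatment. Bars give the software error, and the row Me1 holds the probe that the array names Mod1. Open symbols are values where 1 or both arrays were not well above background, and squares are genes with a marked spot that was kept. Thrsp and Elovl3 lie below DMSO in every treatment, Agpat2 and Elovl1 lie at 0.63 or higher in every treatment, and most other values lie within 2-fold. Under spike-in scaling all bilberry values lie below 0.

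Among the elongases, which add carbons to an existing chain, Elovl1 and Elovl3 lay on opposite sides. Elovl1, which acts on saturated very long chains, had scaled signals of 18.9 for DMSO, 34.3 for bilberry, 31.9 for delphinidin and 30.2 for cyanidin. All 3 treated arrays were close to each other and above DMSO, with log2 ratios of 0.86, 0.75 and 0.68 (software error 0.20 each). Under spike-in scaling the bilberry value was -0.75. With bilberry 6.74% of all genes had a higher ratio, with delphinidin 2.56% and with cyanidin 2.03%. Elovl3, known from brown fat and skin, had scaled signals of 0.0895 for DMSO, 0.0401 for bilberry, 0.0616 for delphinidin and 0.0742 for cyanidin. DMSO was highest and bilberry lowest, and the log2 ratios were -1.16 (0.27), -0.54 (0.22) and -0.27 (0.21). The bilberry ratio of Elovl3 was 1.48 under the first normexp fit and -0.25 under its refit. Elovl5, which lengthens polyunsaturated chains, had log2 ratios of 0.36, -0.13 and -0.21, and Elovl6, which takes palmitate to stearate, had -0.11, 0.43 and 0.20.

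**Figure D3:**
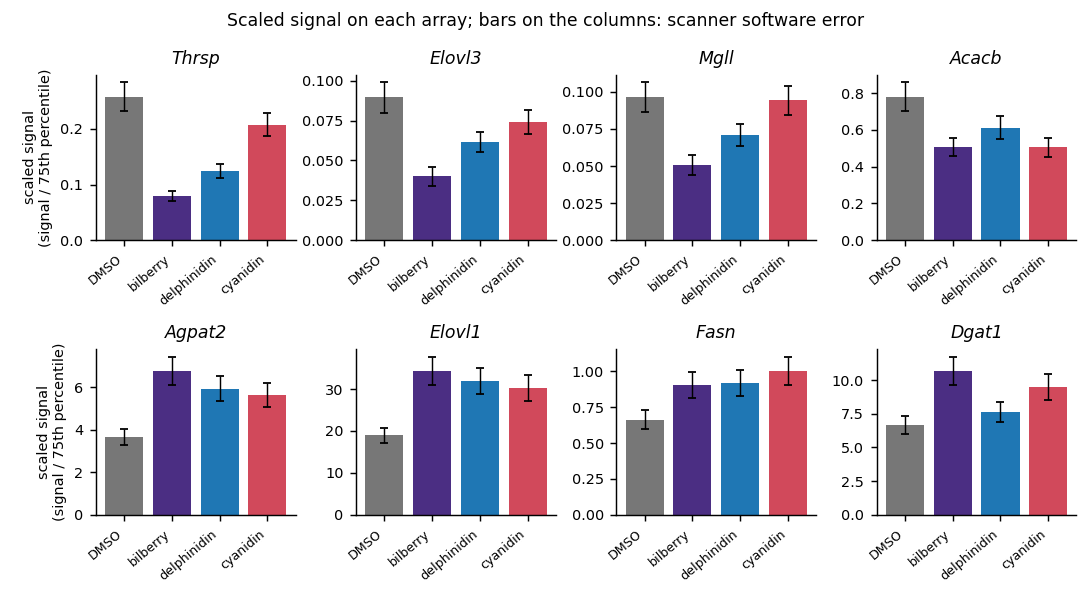
Scaled signal (y axis, signal divided by the 75th percentile of the array) of 8 members on the 4 arrays (columns), with bars for the software error and a scale of its own in each panel. In the upper row DMSO is the highest array of Thrsp, Elovl3, Mgll and Acacb. In the lower row DMSO is the lowest array of Agpat2, Elovl1, Fasn and Dgat1, an order that does not hold for bilberry under spike-in scaling.

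The carboxylases differed from each other. Acaca, which makes the malonyl-CoA that fatty acid synthase uses, had scaled signals of 0.568 for DMSO, 0.822 for bilberry, 0.579 for delphinidin and 0.695 for cyanidin. Acacb, the mitochondrial form known for holding back fatty acid oxidation, had 0.780, 0.507, 0.613 and 0.505 in the same order. DMSO was the lowest array for Acaca, apart from bilberry under spike-in scaling, and the highest for Acacb. The log2 ratios were 0.53, 0.03 and 0.29 for Acaca and -0.62, -0.35 and -0.63 for Acacb, and with cyanidin 4.61% of all genes were lower than Acacb. The second Acacb probe failed the background test on every array, and a mean over both probes was 0.59 with bilberry. On 2 dimmer Acaca probes the cyanidin ratios were -0.12 and -0.19, opposite in sign to the bright one.

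Fasn, the enzyme that builds palmitate, had scaled signals of 0.662 for DMSO, 0.905 for bilberry, 0.919 for delphinidin and 1.00 for cyanidin on the unmarked probe. All 3 treated arrays were above DMSO, with log2 ratios of 0.45, 0.47 and 0.60. The other probe of Fasn was far brighter, with a scaled signal of 123 on the DMSO array, and was marked on the bilberry array. It read 0.68, 0.32 and 0.30, and the counts for Fasn use the dimmer, unmarked probe. Both probes thus had each treatment above DMSO, and under spike-in scaling the bilberry value of the unmarked probe was -1.15.

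Of the genes that supply acetyl-CoA and NADPH, Acly and Me1 lay close to DMSO. Acly, which splits citrate, read -0.04, 0.03 and -0.02 (log2 ratio with bilberry, delphinidin and cyanidin), with scaled signals of 2.40, 2.34, 2.45 and 2.37 from DMSO to cyanidin. The 4 arrays of Acly were level within the software error. Acss2, which makes acetyl-CoA from acetate, read 0.43, 0.00 and -0.08, and a second probe well above background gave 0.36, 0.01 and -0.12. Me1, the malic enzyme that yields NADPH and is named Mod1 on the array, read 0.13, 0.15 and 0.12. The citrate carrier Slc25a1, marked on the DMSO array, had scaled signals of 5.20 for DMSO, 9.25 for bilberry, 5.28 for delphinidin and 5.64 for cyanidin with the spot kept. Bilberry alone stood apart for Slc25a1, with log2 ratios of 0.83, 0.02 and 0.12.

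Desaturases, which put double bonds into the chain, had 3 of 4 genes above DMSO with bilberry before spike-in scaling, where 61.7% of all genes were. Scd2, the stearoyl-CoA desaturase of many tissues outside the liver, was unmarked on DMSO and bilberry and marked on the other arrays. Its scaled signal was 80.1 for DMSO, 136 for bilberry, 92.5 for delphinidin and 99.5 for cyanidin. Bilberry was highest and DMSO lowest, with log2 ratios of 0.77, 0.21 and 0.31. Scd1, a well-known gene of differentiated fat cells, was marked on all arrays but cyanidin, and its log2 ratios with the spots kept were -0.07, 0.11 and 0.22. Fads2, the delta-6 desaturase, read 0.58, 0.04 and -0.05, and Fads1, the delta-5 desaturase, read 0.27, -0.13 and -0.02.

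Acyl-CoA synthetases spread to both sides. Acsl1, a main form in fat cells, had scaled signals of 57.1 for DMSO, 61.3 for bilberry, 75.01 for delphinidin and 69.2 for cyanidin. The anthocyanidin arrays were higher, with log2 ratios of 0.10, 0.39 and 0.28, and its other probes were at -0.05 and -0.15 with bilberry. Acsl5 had 1.15, 1.82, 1.33 and 1.63 in the same order, with log2 ratios of 0.66, 0.20 and 0.50. Acsl4, which prefers arachidonate, had 20.9, 15.1, 18.0 and 14.8, with log2 ratios of -0.47, -0.21 and -0.50. Acsl5 was thus above DMSO and Acsl4 below it on every treated array, apart from Acsl5 with bilberry under spike-in scaling (-0.95) and Acsl4 with delphinidin under it (0.02). Acsl3 read -0.20, 0.06 and 0.01.

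Glycerolipid assembly held the highest bilberry ratios of the module, those of Agpat1 and Agpat2, where 5.73% and 6.11% of all genes were higher. Agpat2, which makes phosphatidic acid and is needed to form fat tissue, had scaled signals of 3.65 for DMSO, 6.75 for bilberry, 5.91 for delphinidin and 5.63 for cyanidin. Every treated array was above DMSO, with log2 ratios of 0.89, 0.70 and 0.63 (software error 0.20 each). The second probe of Agpat2 gave 1.04, 0.77 and 0.72, and only the bilberry value under spike-in scaling was negative (-0.72). Agpat2 and Elovl1 were the 2 members above 0.5 in all 3 treatments, which is 7.14% of the 28 against 2.30% of all genes.

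Agpat1, another enzyme of that step, differed from DMSO with bilberry alone. Its scaled signals were 0.694 for DMSO, 1.30 for bilberry, 0.703 for delphinidin and 0.767 for cyanidin. The log2 ratios were 0.90, 0.02 and 0.14, and the second probe gave 0.69, -0.10 and -0.08. Agpat3 read 0.40, -0.30 and -0.01 and Agpat4 read 0.37, -0.27 and -0.20, so both were above DMSO with bilberry before spike-in scaling and below it with delphinidin. Gpam, the mitochondrial enzyme of the first acylation, read 0.27, 0.16 and 0.31.

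In the last steps, from phosphatidic acid to triglyceride, Dgat1 and Dgat2 differed on their brightest probes. Dgat1, 1 of the enzymes that close the triglyceride, had scaled signals of 6.65 for DMSO, 10.7 for bilberry, 7.65 for delphinidin and 9.52 for cyanidin. Bilberry and cyanidin were above the rest, with log2 ratios of 0.69, 0.20 and 0.52, and the second probe gave 0.69, 0.17 and 0.47. Dgat2, the other such enzyme, had 26.9, 28.8, 28.6 and 28.2 and read 0.10, 0.09 and 0.07, while its dimmer probes gave 0.33 and 0.44 with bilberry, 0.27 and 0.24 with delphinidin and 0.38 each with cyanidin. The lipins remove the phosphate. Lpin1, the form needed for fat cell differentiation, read -0.21, -0.21 and -0.09, and all 4 of its probes were below DMSO in every treatment, from -0.41 to -0.03, although under spike-in scaling the delphinidin and cyanidin values were 0.03 and 0.08. Lpin2 read -0.03, 0.05 and -0.01, where another probe well above background gave 0.52, 0.19 and 0.48. Lpin3 was dim, with scaled signals of 0.0270 with DMSO, 0.0134 with delphinidin and 0.0157 with cyanidin and not well above background with bilberry. Its log2 ratios were -1.01 (software error 0.35) with delphinidin and -0.78 (0.33) with cyanidin, and DMSO was at least 1.20-fold over bilberry. That order of DMSO and bilberry turned under both normexp fits, where the log2 ratio of Lpin3 was 2.17 and 0.27. Mogat1, which acylates monoacylglycerol, read 0.12, 0.16 and -0.04.

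Lipases that release fatty acids went different ways. Pnpla2, the adipose triglyceride lipase, had scaled signals of 19.9 for DMSO, 25.7 for bilberry, 20.9 for delphinidin and 26.8 for cyanidin. Bilberry and cyanidin lay together above the others, with log2 ratios of 0.37, 0.08 and 0.43. Mgll, the monoglyceride lipase, had 0.0963, 0.0506, 0.0707 and 0.0942, so cyanidin was level with DMSO. Its log2 ratios were -0.93 (0.25), -0.45 (0.21) and -0.03 (0.21), and a second probe well above background gave -0.23, -0.33 and -0.04. Under the first normexp fit the Mgll value with bilberry was 1.46. Pnpla3 failed the background test on every array, so its log2 ratio of -1.38 with cyanidin, which counts among those past 2-fold above, has an error of 1.40 and gives no fold.

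Members with several probes showed how far probes of the same gene differ. There were 16 such genes with at least 2 probes that passed the background test on each array. The probes had the same sign for 14 genes under bilberry, 14 under delphinidin and 12 under cyanidin. The median distance between the highest and lowest probe was 0.19, 0.09 and 0.15 in that order. The widest gap was 0.70 for Mgll with bilberry, 0.28 for Agpat3 with delphinidin and 0.49 for Lpin2 with cyanidin.

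**Figure D4:**
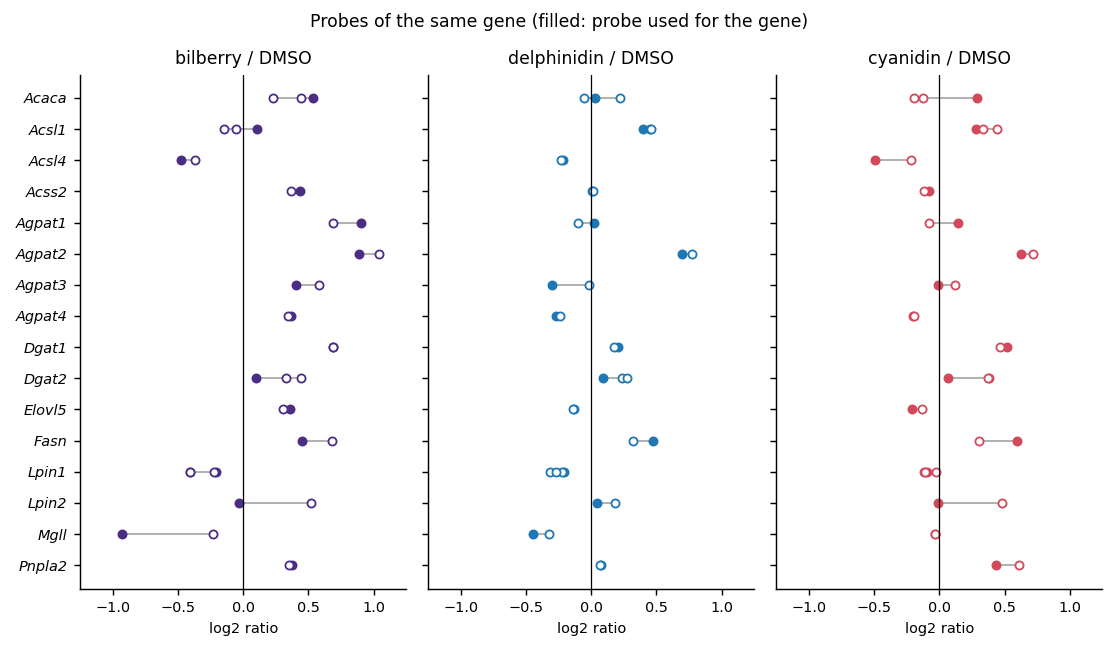
Log2 ratio to DMSO (x axis) of each probe of the 16 members with at least 2 probes well above background, with the probe used for the gene filled, other probes open, and marked spots kept. The probes of Agpat2, Dgat1 and Agpat4 lie close together in each panel, while those of Mgll with bilberry and Lpin2 with bilberry and cyanidin lie apart.

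Delphinidin and cyanidin could be compared at the same dose and day, as 1 pair. Delphinidin carries a further hydroxyl group on the B ring. Between these arrays 1 of 31 members was higher by more than 2-fold with delphinidin (Pnpla3, not well above background on either array) and 0 were lower, where 3.6% and 3.01% of all genes were. Among the 28 members well above background 0 were past 2-fold, beside 0.775% of all genes, and with 1 array each no interval of the difference can be given. The median log2 ratio of delphinidin to cyanidin was -0.02, against -0.03 for all genes. On each side of 0 there were 14 members, where 43.8% of all genes were above 0.

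Thrsp differed most between the anthocyanidins, at 0.124 with delphinidin and 0.207 with cyanidin. Its log2 ratio of -0.74 was the only 1 of the 28 past 2 times its software error, and 0.872% of all genes had a lower ratio. Other members below 0 by more than the software error were Mgll at -0.41 (second probe -0.29), Pnpla2 at -0.36 (second probe -0.54) and Dgat1 at -0.31 (second probe -0.29). So were Acsl5 at -0.29, Agpat3 at -0.29 (second probe -0.14), Elovl3 at -0.27 and Acaca at -0.26 (up to 0.42 on its dimmer probes). Of the 10 members of glycerolipid assembly well above background, 6 were below 0 and 4 above, where 43.8% of all genes were above 0. On the other side Elovl6 was at 0.23, and Acacb and Acsl4 were each at 0.28, where the second probe of Acsl4 gave -0.01. Srebf1, unmarked on these arrays, was at -0.25. Values of 11 of the 28 were past the software error of that ratio, and the share of all genes past theirs was not counted. The bilberry dose is given in µg/ml of an extract and is not matched to either anthocyanidin.

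Further genes of lipid synthesis were counted in the same way. Of 32 such genes, 27 had a value and 19 passed the background test on each array. Of the 19, 0 were past 2-fold in any of the 4 comparisons. Among all genes that passed, 10.5% were with bilberry, 2.69% with delphinidin, 1.95% with cyanidin and 0.775% between the anthocyanidins. The median log2 ratio of the 19 was 0.51 for bilberry, 0.13 for delphinidin and 0.19 for cyanidin, against 0.16, -0.01 and 0.01 for all genes. The NADPH enzymes G6pdx and Pgd were highest with bilberry beside Elovl4, at 0.94, 0.87 and 0.97. Among 17 regulators of lipid synthesis, all well above background, 0 were past 2-fold in any comparison, beside the same all-gene shares. Their medians were 0.37, 0.18 and 0.09. Insig1, which retains the SREBP precursor in the endoplasmic reticulum, read 0.16, 0.54 and -0.34, and was 0.88 higher (log2) with delphinidin than with cyanidin. The bilberry values of these lists are open to the same spike-in shift of -1.60.

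Genes of the lipid droplet, lipolysis and lipid uptake held 2 values past 2-fold with bilberry. Of 22 such genes, 18 had a value and 16 were well above background. Of the 16, 2 were lower with bilberry by more than 2-fold: Bscl2 (seipin), at -1.26, and the lipase inhibitor G0s2, at -1.37. Of all 12383 genes well above background, 10.5% were past 2-fold with bilberry in either direction. With the anthocyanidins 0 of the 16 were past 2-fold, beside 2.69% of all genes with delphinidin and 1.95% with cyanidin. Between delphinidin and cyanidin the droplet protein Plin1 was at -0.58 and the hormone-sensitive lipase Lipe at -0.41, with a list median of -0.13. Fat cell markers split on the bilberry array, with a median of 0.02. Of the 9, 3 were lower by more than 2-fold, Adipoq at -1.07, Slc2a4 at -1.54 and Retn at -1.08, where 7.25% of all genes were. Fabp4 came close to that, at -0.95, while Cebpa was at 0.50, Plin1 at 0.39, Cidec at 0.17, Pparg at 0.15 and Lpl at 0.02. Of 9 preadipocyte markers, with a median of -0.10 with bilberry, 1 was lower by more than 2-fold, Thy1 at -1.20. With either anthocyanidin 0 of the 9 in each list were past 2-fold. Fat cell markers then had medians of 0.06 with delphinidin (-0.61 to 0.73) and 0.31 with cyanidin (-0.28 to 0.78). Preadipocyte markers had -0.15 with delphinidin (-0.94 to 0.15) and -0.26 with cyanidin (-0.87 to -0.02). The medians of all genes were -0.01 and 0.01. Csf1r was higher with bilberry, at 1.16, while Lyz2, the other macrophage marker that passed the background test, was at -0.16. Krt8 was higher in all 3 treatments, at 1.17, 1.80 and 1.06. Csf1r and Krt8 were dim, with scaled signals of 0.0172 and 0.0256 on the DMSO array. The part of these markers in the members' ratios was not tested.

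The dim members Thrsp and Elovl3 depended more on the processing than the bright members Agpat2 and Elovl1. Without spike-in scaling and the first normexp fit, Agpat2 ranged from 0.71 to 0.96 with bilberry and Elovl1 from 0.60 to 0.87. Over the same settings Thrsp ranged from -1.70 to -0.87 with bilberry and from -1.08 to -0.82 with delphinidin, and Elovl3 from -1.20 to -0.25 with bilberry. With delphinidin the ranges over all settings were of like width, -0.54 to -0.30 for Elovl3, 0.66 to 0.93 for Agpat2 and 0.71 to 0.99 for Elovl1. With cyanidin they were -0.31 to -0.14 for Thrsp and -0.27 to -0.09 for Elovl3, and 0.56 to 0.80 for Agpat2 and 0.62 to 0.85 for Elovl1. Thrsp was below DMSO with delphinidin and with cyanidin in every setting run.

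**Figure D5:**
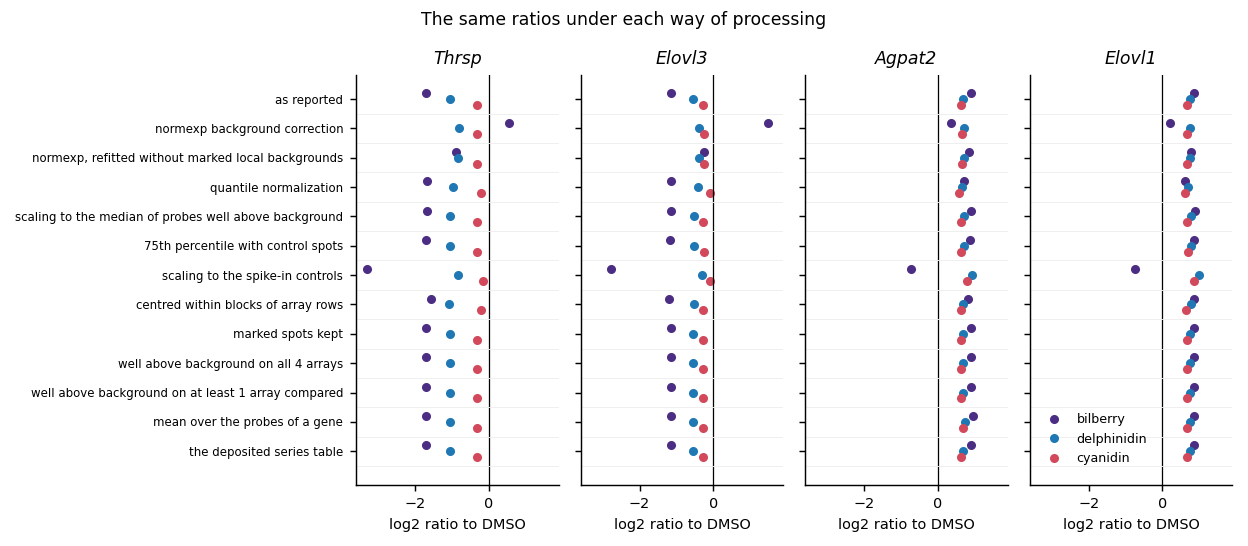
Log2 ratio to DMSO (x axis) of Thrsp, Elovl3, Agpat2 and Elovl1 under each way of processing (rows), 1 colour per treatment. The delphinidin and cyanidin points keep their side of 0 in each row, and the bilberry points leave theirs under the first normexp fit for Thrsp and Elovl3 and under spike-in scaling for Agpat2 and Elovl1.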

How the data were processed

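The authors labelled total RNA with 1 dye, hybridised it to Agilent Whole Mouse Genome arrays and deposited the Feature Extraction output, in which each spot has an intensity (processed signal). Per the file headers the software version was 9.5.1.1. On every spot the subtracted background equalled the fitted spatial surface (largest difference 0). A deposited table of the series holds the same signal (largest relative difference 0).

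Here signals were scaled to the 75th percentile over the 43379 non-control spots of the same array and put on the log2 scale. None lay at the floor of 0.01 given in the methods of the study. Between 701 and 875 spots per array that the software marked as outlying were left out. For a gene with several probes, the brightest on average was used among those with a value on all 4 arrays. Past 2-fold means a ratio over 2 or under its inverse. Where a probe failed the background test on 1 of the arrays compared, the bound sets the other array's scaled signal against the higher of the probe's own value and the lowest scaled signal well above background there. The members and lists were chosen with earlier results of these data known. All 36 listed genes are named. The alternatives were 2 normexp fits (offset 50), quantile, spike-in and 2 further scalings, centring within 20 blocks of array rows, marked spots kept, 2 detection filters, the mean over probes, the deposited table, and thresholds of 1.5 and 3. The calculations were tested on simulated data. Promoter windows and gene starts are those of RefSeq on GRCm38.p6, and probe coordinates those of the files, on mm8. The number of arrays limits the precision, and an array has no depth beyond its signal over background. Python 3.11.15, numpy 2.4.6, pandas 2.3.3, matplotlib 3.10.9, R 4.3.3 and limma 3.58.1 were used.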

Additional observations from a re-analysis of the deposited data

Results flagged for a closer look

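Of 268 member spots, 9 were marked by the scanner software and left out, all for an outlying local background, which was 241 to 254.5 on those spots where the array medians were 245 to 248. The following log2 ratios with these spots kept lay above DMSO by more than the software error, in data that the counts above do not use. With bilberry they were 0.83 for Slc25a1, 0.68 for the brighter Fasn probe, 0.58 for the second Agpat3 probe and 0.47 for Srebf1, all of which are negative under spike-in scaling. With cyanidin they were 0.31 for Scd2 and 0.22 for Scd1, and with delphinidin 0.21 for Scd2. Why these backgrounds were outlying was not tested.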

How the results depend on the processing

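The reported numbers of members past 2-fold were 3 with bilberry, 2 with delphinidin, 2 with cyanidin and 1 between delphinidin and cyanidin. Normexp gave 8, 0, 0 and 0 in that order and its refit without marked local backgrounds 0, 0, 0 and 0, each with an offset of 50. Under the first fit 14 of 31 bilberry values changed sign, and Elovl3 (1.48), Mlxipl (2.37), Thrsp (0.54), Mgll (1.46), Pnpla3 (2.55) and Lpin3 (2.17) were among those that turned above DMSO. Under the refit 3 did, Mlxipl (0.37), Pnpla3 (0.51) and Lpin3 (0.27). Spike-in scaling gave 26 with bilberry and 0 with delphinidin, and quantile normalization 0 with delphinidin and 0 between the anthocyanidins. The delphinidin number was 1 when scaled to the median of the bright probes or to a percentile that includes control spots. Genes that passed the background test on each array gave 1 with delphinidin, 0 with cyanidin and 0 between the anthocyanidins, and those on at least 1 array compared 1 with cyanidin and 0 between the anthocyanidins. The mean over probes gave 1 with cyanidin and 2 between the anthocyanidins. A threshold of 1.5 gave 11, 5, 7 and 2, and 1 of 3 gave 1, 0, 0 and 0. The bilberry median of the members less that of all genes was -0.24 without a filter, -1.14 under normexp, 0.063 under quantile normalization, 0.11 for genes that passed the background test on each array and 0.052 for those on at least 1 array compared, so its sign turned with either filter and with quantile normalization. The cause of the changes between settings was not tested. Spike-in scaling moved all 31 bilberry ratios and 27 of 31 delphinidin ratios by more than their software error, and quantile normalization 9 of 31 bilberry ratios. No paired analysis was possible because there was 1 array per condition. The number of arrays and, for dim probes, the signal over background limit every value.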
